A study of Mus musculus with 11 samples.

Results

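The comparison of 4HBP with vehicle in proliferation medium used 6 of the 11 RNA sequencing libraries of the series. They were taken by their titles, 3 from NSCs treated with 4HBP and 3 from control NSCs, and every gene was analysed. The NSCs were primary neural stem cells dissociated from the hippocampus of mouse embryos, grown as neurospheres and then plated, and the cells of all 6 libraries were kept in DMEM/F12 with EGF, bFGF and B27. For 7 days they received 1 µM 4HBP or EtOH alone, and the other 5 libraries came from the same treatments in differentiation medium, which lacks both growth factors. The labels spell the compound out as 4-hydroxybenzoic acid and the paper as 4-hydroxybenzophenone, and the short name 4HBP is used here. Neither says how many embryos gave a culture or whether replicates were separate cultures, so the p-values measure the spread between these libraries, which may be technical.

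EGF and bFGF act through receptor tyrosine kinases and the ERK pathway to keep NSCs dividing, and that pathway switches on immediate early genes such as Egr1 and its own inhibitors of the Sprouty and Dusp families. Cultured NSCs resemble radial glia and share many genes with astrocytes, among them those for gap junctions, potassium buffering, lipid synthesis and the hyaluronan-based matrix of the brain. When eIF2α is phosphorylated, as under shortage of amino acids or stress in the endoplasmic reticulum, the transcription factor ATF4 is translated and switches on genes for amino acid uptake, amino acid synthesis and the charging of tRNAs.

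The libraries held 20840839 to 21129722 expected counts and 19029 to 19694 genes above 0, so 3 counts, taken as the smallest detectable amount, stood for 0.142 to 0.144 CPM before and 0.138 to 0.146 CPM after TMM normalisation. This limit covers counting error only. Mitochondrial genes took 8.49% to 9.60% of the counts. No library repeated another, but 4HBP replicate 3 stood apart from the other two of its group, with a chi-square per gene of 23.8 and 21.4 against them, whereas replicates 1 and 2 differed by 5.34 and the controls by 9.42 to 11.9. Values below are CPM normalised by TMM unless TPM is named, and are listed in the order of replicates 1, 2 and 3.

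Of the 14449 genes tested, 1074 (7.43%) passed an adjusted p under 0.05 in edgeR's quasi-likelihood test, 541 higher with 4HBP (3.74%) and 533 lower (3.69%). Most changes were small. The median log2 fold change was 0.54 for the genes that rose and -0.57 for those that fell, and 112 and 108 of them changed by more than 1 on the log2 scale. A change of more than 0.58 on that scale was reached by 506 of the called genes (3.5% of those tested). The 3 libraries of each group did not overlap in any of the 1074 genes, but the same held for 4516 genes in all (31.3% of those tested). Where groups of a called gene are said below to be apart, this holds for every call and adds no support. Scaling by library totals instead of TMM raised the share of higher genes among the calls from 50.4% to 58.6%, and shifted the median log2 fold change of all genes from 0.00 to 0.03.

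The count of calls depended on which library was left out. It was 107 without control replicate 1 and 137 without control replicate 2, 290 without 4HBP replicate 2 and 705 without 4HBP replicate 1, 958 without control replicate 3, and 1429 without 4HBP replicate 3, the library that stood apart. Without that library, 498 of the 541 higher and 479 of the 533 lower genes remained called. All of them kept their direction, but since no called gene had overlapping groups, this could hardly have come out otherwise. In 6 fits, each without 1 of the libraries, 96 genes (43 higher and 53 lower) passed every time.

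Changed genes were found at all levels of expression, but seldom among weakly expressed genes. TPM, which accounts for gene length, was used to compare levels between genes. The genes that rose had a median level of 20.6 TPM and those that fell 17.7 TPM, against 13.7 TPM over all genes tested. Among 1577 genes under 1 TPM, 1.08% rose and 1.65% fell, with median log2 fold changes of 1.85 and -1.59. Among 3853 genes of 10 to 30 TPM, 4.96% rose and 4.05% fell, with medians of 0.47 and -0.52, and among 1277 genes over 100 TPM the shares were 4.31% and 4.86%. Nearly all calls were protein-coding genes, with 533 of the higher and 508 of the lower, as were 12920 of the 14449 genes tested. Of 329 lincRNA genes 4 rose (1.22%, against 3.74% of all genes) and 7 fell (2.13%, against 3.69%). Of 232 antisense genes none rose and 8 fell (3.45%, near the share of all genes), although the sources used here do not say whether the counting used strand. The median SE was 0.31 for lincRNA, 0.32 for antisense and 0.11 for protein-coding genes, so changes in the first 2 classes could more easily be missed.

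**Figure D1:**
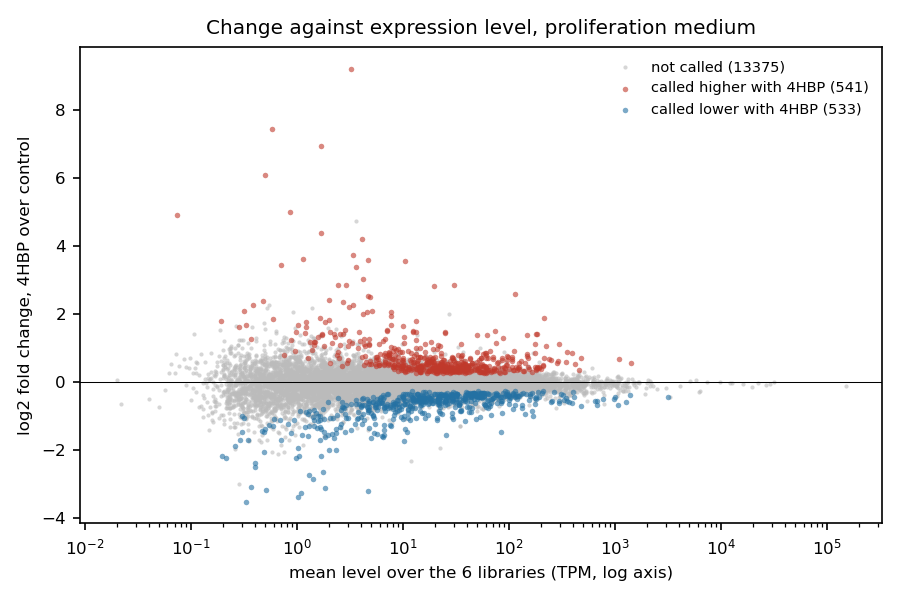
Log2 fold change of 4HBP over control against the mean level in TPM (log axis) over the 6 libraries, with each point a gene, red where it was called higher (541), blue where it was called lower (533) and grey otherwise. The spread of the points is wider at low TPM, and called genes lie at every level above about 1 TPM on both sides of 0.

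In each library the genes called higher together made up 2.67%, 2.95% and 3.33% of all TPM with 4HBP and 1.95%, 1.76% and 2.01% in the controls. Those called lower made up 2.72%, 2.69% and 2.76% with 4HBP and 3.85%, 4.02% and 3.51% in the controls. These sums describe genes that were chosen by the same comparison and add no test.

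The strongest rise among genes of at least 5 CPM was that of Slc7a3, a transporter of cationic amino acids on chromosome X (101079210 to 101086020, GRCm38). It was at 21.2, 28.2 and 38.3 CPM in the 4HBP libraries against 2.96, 1.94 and 2.53 CPM in the controls (log2 fold change 3.56 ± 0.25 SE, adjusted p = 0.000882). Fbln5, which encodes an elastic fibre protein, was at 8.78, 15.0 and 15.7 CPM in the 4HBP libraries against 1.43, 1.02 and 1.31 CPM in the controls (log2 fold change 3.39 ± 0.27 SE, adjusted p = 0.000882). In both genes the lowest treated library was at least several times above the highest control. Cyb5r1, a reductase of the cytochrome b5 system, was at 28.2, 50.7 and 72.005 CPM in the 4HBP libraries against 5.82, 5.96 and 9.004 CPM in the controls (log2 fold change 2.86 ± 0.32 SE, adjusted p = 0.00406), and Nupr1, a small chromatin protein induced by stress, at 57.9, 92.7 and 114 CPM in the 4HBP libraries against 15.1, 11.3 and 17.8 CPM in the controls (log2 fold change 2.58 ± 0.25 SE, adjusted p = 0.00230). Slc4a10, a sodium and bicarbonate transporter, rose from 1.29 to 4.94 TPM on average (log2 fold change 2.202 ± 0.26 SE, adjusted p = 0.00430).

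The same 10 genes held 2 that are best known from the outer layers of the skin. Tgm1, a transglutaminase that cross-links proteins, was at 5.71, 7.16 and 15.4 CPM in the 4HBP libraries against 1.15, 0.727 and 2.00 CPM in the controls (log2 fold change 2.87 ± 0.45 SE, adjusted p = 0.0100), and Cdsn, a desmosomal adhesion protein, was at 34.8, 90.5 and 62.8 CPM in the 4HBP libraries against 5.54, 7.52 and 13.5 CPM in the controls (log2 fold change 2.83 ± 0.38 SE, adjusted p = 0.00656). In each gene the 3 treated libraries spread over more than a doubling. The remaining members were Apobr (2.85, adjusted p = 0.0173), Egr2 (2.52, adjusted p = 0.0265) and Shisa3 (2.27, adjusted p = 0.0415), and in these 3 genes 4HBP replicate 3 was the highest library by a wide margin. Shisa3 was at 8.16, 6.26 and 29.0 CPM in the 4HBP libraries against 2.96, 2.04 and 3.99 CPM in the controls. Without that library the log2 fold changes of Egr2 and Shisa3 were 1.58 and 1.27. Tgm1, Apobr, Egr2 and Shisa3 were not called without control replicate 1 or control replicate 2.

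The largest falls were smaller in size than the largest rises. Padi2, an enzyme that turns arginine in proteins into citrulline (chromosome 4, 140906344 to 140952586), was at 11.3, 10.9 and 10.4 CPM in the 4HBP libraries against 30.3, 39.1 and 30.4 CPM in the controls (log2 fold change -1.62 ± 0.13 SE, adjusted p = 0.000882). Btbd17 was at 16.3, 15.6 and 12.6 CPM in the 4HBP libraries against 46.2, 45.2 and 39.4 CPM in the controls (log2 fold change -1.56 ± 0.12 SE, adjusted p = 0.000882). In both, the 3 treated libraries lay close together and at about 1 in 3 of the control level. Igfbp5, a secreted protein that binds insulin-like growth factors, was at 164, 178 and 235 CPM in the 4HBP libraries against 488, 655 and 463 CPM in the controls (log2 fold change -1.48 ± 0.17 SE, adjusted p = 0.00398), and Agt, the precursor of angiotensin, at 3.74, 3.65 and 3.77 CPM in the 4HBP libraries against 12.3, 12.3 and 7.93 CPM in the controls (log2 fold change -1.54 ± 0.19 SE, adjusted p = 0.00505). The scavenger receptor family gene Ssc5d (-1.72, adjusted p = 0.00681) and the matrix gene Sned1 (-1.59, adjusted p = 0.00859) fell furthest in 4HBP replicate 3. Serpinb1a, an inhibitor of serine proteases (-1.64, adjusted p = 0.00722), Acat3, an acetyl-CoA acetyltransferase (-1.56, adjusted p = 0.00656), Htra3, a secreted serine protease (-1.46, adjusted p = 0.00499), and the orphan receptor gene Gpr153 (-1.41, adjusted p = 0.00656) completed the 10. All 10 passed in each fit without 1 library.

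**Figure D2:**
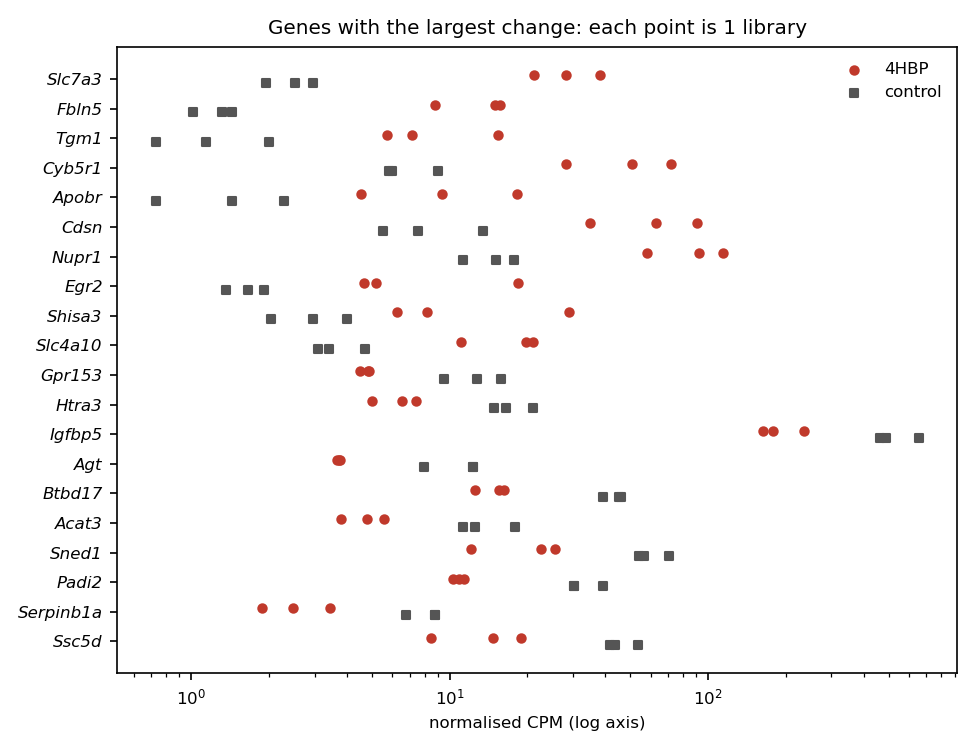
Normalised CPM (log axis) of the 10 genes called higher and the 10 called lower with the largest log2 fold change among genes of at least 5 CPM, with circles for the 3 4HBP libraries and squares for the 3 controls. Slc7a3 (top) separates the groups most, and in Egr2 and Shisa3 the gap depends largely on 1 treated library.

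Abundant genes changed less on the log2 scale. Hspa8, the constitutive cytosolic HSP70 chaperone, was at 1819.8, 1878 and 1561 CPM in the 4HBP libraries against 1229.7, 1160.4 and 1175 CPM in the controls (log2 fold change 0.56 ± 0.09 SE, adjusted p = 0.0128), a mean of 1103 TPM in controls and 1703 TPM with 4HBP. Next in level among the genes that rose were Dhrs1, a short-chain dehydrogenase (1081 TPM, 0.68, adjusted p = 0.0146), the seryl-tRNA synthetase gene Sars (479 TPM, 0.71, adjusted p = 0.0137), Mtss1l, which encodes a protein that bends membranes (461 TPM, 0.35, adjusted p = 0.0331) and the snoRNA host transcript Gas5 (422 TPM, 0.53, adjusted p = 0.0226). The most abundant genes that fell were Dbi, the acyl-CoA binding protein (3609.8 TPM in controls and 2764 TPM with 4HBP, -0.42, adjusted p = 0.0196), the prohormone processing enzyme Cpe (1370.2 TPM, -0.38, adjusted p = 0.0203), the stearoyl-CoA desaturase Scd2 (1276 TPM, -0.60, adjusted p = 0.0249), Gfap (1060.2 TPM, -0.68, adjusted p = 0.00987) and the actin-binding peptide Tmsb4x (995 TPM, -0.45, adjusted p = 0.0344). For each of these 10 genes the call was lost without control replicate 1 and also without control replicate 2 (adjusted p up to 0.148, for Tmsb4x).

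Many genes of amino acid synthesis rose. Shmt2, the mitochondrial serine hydroxymethyltransferase, was at 398, 456 and 466 CPM in the 4HBP libraries against 208, 200.2 and 218 CPM in the controls (log2 fold change 1.08 ± 0.08 SE, adjusted p = 0.000882), and Asns, the asparagine synthetase, at 235, 320.5 and 304 CPM in the 4HBP libraries against 116, 94.4 and 122 CPM in the controls (log2 fold change 1.37 ± 0.13 SE, adjusted p = 0.00237). Pck2, the mitochondrial form of phosphoenolpyruvate carboxykinase, was at 58.0, 69.6 and 84.9 CPM in the 4HBP libraries against 24.2, 21.1 and 31.9 CPM in the controls (log2 fold change 1.46 ± 0.17 SE, adjusted p = 0.00422). In each of them 4HBP replicate 1 was the lowest of the 3 treated libraries. A list of 19 enzymes held those of serine synthesis and folate metabolism, and also enzymes of other amino acids, among them Asns, Pycr1, Aldh18a1, Cth and Cbs. Of the 19, 10 rose (52.6%, against 3.74% of all genes) and 1, Cbs, fell (5.26%, against 3.69%). The median was 0.46, and between 6 and 11 rose in the fits without 1 library. The transcription factor Atf5 was at 339, 388 and 478 CPM in the 4HBP libraries against 114, 91.5 and 119 CPM in the controls (log2 fold change 1.89 ± 0.14 SE, adjusted p = 0.000882). Grb10, an adaptor that dampens insulin and growth factor receptors, was at 30.9, 41.5 and 54.4 CPM in the 4HBP libraries against 11.3, 10.5 and 11.3 CPM in the controls (log2 fold change 1.94 ± 0.19 SE, adjusted p = 0.00230).

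A short sequence that ATF4 and its partners of the C/EBP family can bind, TGATGNAA, was searched on both strands in RefSeq promoters (GRCm38.p6, 250 bases before to 50 after the start site). Of 14449 genes tested, 10613 had a promoter, and the motif was in 2.14% of these, in 28 of 412 promoters of genes that rose (6.80%) and in 8 of 408 of genes that fell (1.96%). The related cyclic AMP element TGACGTCA was in 3.34% of all, 1.94% of higher and 2.94% of lower promoters, and the AP-1 site TGANTCA in 4.62%, 6.55% and 6.37%. For lower genes, the SREBP element TCACNCCAC was in 8 of 408 promoters (1.96%) against 1.03% of all and 0.243% of higher promoters. The 8 genes included Gfap and Aldoc, but neither Mvk nor any gene of fatty acid synthesis and desaturation that fell. The NF-kB site GGGANTTCC was in 2.21% of all, 2.18% of higher and 0.735% of lower promoters, the nuclear factor Y box CCAAT in 39.2%, 33.0% and 43.4%, and the palindrome of the NFI factors in 0.0283%, 0% and 0.245%. A window could count for more than 1 of these motifs. A match describes letters and is neither a site nor a cause.

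The 250 bases before the start site are shown for the 4 genes with the smallest adjusted p among those that rose and held the motif, as examples from amino acid and stress metabolism, and capitals mark the match to TGATGNAA or its reverse complement. The match lay 110 bases before the start in Nupr1 (chr7:126625471-126625720, minus strand), 23 in Asns (chr6:7693210-7693459, minus strand), 103 in Pycr1 (chr11:120643749-120643998, minus strand) and 103 in Pck2 (chr14:55540016-55540265, plus strand).
Nupr1: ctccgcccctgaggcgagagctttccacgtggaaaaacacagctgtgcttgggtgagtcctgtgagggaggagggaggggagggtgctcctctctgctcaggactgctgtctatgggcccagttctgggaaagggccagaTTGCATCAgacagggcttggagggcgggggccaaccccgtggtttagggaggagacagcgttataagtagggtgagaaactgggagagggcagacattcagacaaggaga
Asns: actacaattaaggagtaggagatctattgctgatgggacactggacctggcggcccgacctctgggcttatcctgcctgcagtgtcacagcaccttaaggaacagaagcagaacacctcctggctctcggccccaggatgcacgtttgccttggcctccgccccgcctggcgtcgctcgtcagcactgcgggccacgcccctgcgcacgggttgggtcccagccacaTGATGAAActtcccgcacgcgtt
Pycr1: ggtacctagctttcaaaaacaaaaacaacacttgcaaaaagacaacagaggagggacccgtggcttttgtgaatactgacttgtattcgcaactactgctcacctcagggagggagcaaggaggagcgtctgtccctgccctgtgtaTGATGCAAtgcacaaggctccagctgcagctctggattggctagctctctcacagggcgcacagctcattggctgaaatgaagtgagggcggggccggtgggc
Pck2: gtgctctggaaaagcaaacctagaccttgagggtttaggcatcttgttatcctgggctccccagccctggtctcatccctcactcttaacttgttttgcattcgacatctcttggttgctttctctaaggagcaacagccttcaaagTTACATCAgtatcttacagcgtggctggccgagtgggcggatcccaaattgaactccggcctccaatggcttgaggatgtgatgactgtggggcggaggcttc
Pycr1, which makes proline, was at 32.5, 43.6 and 49.97 CPM in the 4HBP libraries against 16.1, 14.4 and 15.8 CPM in the controls (log2 fold change 1.44 ± 0.15 SE, adjusted p = 0.00332), so that its treated libraries were all above its controls, and the values of the 3 other genes are given above.

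Transporters formed the list with the most calls. Of 227 solute carriers tested 18 rose and 12 fell (13.2%, against 7.43% of all genes). Of those that rose, 7 were transporters of amino acids in the plasma membrane, out of 19 (36.8%, against 3.74% of all genes). Slc7a5 and Slc3a2, which form the large neutral amino acid exchanger, were at 517, 618 and 643 CPM in the 4HBP libraries against 263, 256 and 297 CPM in the controls (log2 fold change 1.12 ± 0.10 SE, adjusted p = 0.00201) and at 396, 480.2 and 545 CPM in the 4HBP libraries against 208, 191 and 249 CPM in the controls (log2 fold change 1.13 ± 0.13 SE, adjusted p = 0.00422). Both genes rose by similar amounts. The other carriers that rose included the thiamine transporter Slc19a2 at 18.2, 23.3 and 27.1 CPM in the 4HBP libraries against 10.7, 10.5 and 12.8 CPM in the controls (log2 fold change 1.02 ± 0.16 SE, adjusted p = 0.00996) and the folate transporter Slc19a1 (0.60, adjusted p = 0.0228). Those that fell included Slc25a18, a mitochondrial glutamate carrier (-0.55, adjusted p = 0.0184), and the oligopeptide transporter Slc15a2 (-0.59, adjusted p = 0.0259). Slc25a34, a mitochondrial carrier, was at 0.0960, 0.0948 and 0.0920 CPM in the 4HBP libraries against 1.38, 1.02 and 1.02 CPM in the controls, and the glucose transporter Slc2a4 at 0.00, 0.142 and 0.0460 CPM in the 4HBP libraries against 0.620, 0.630 and 0.487 CPM in the controls. These 2 genes were at or under 3 counts in every treated library, so they were at least 8.07-fold and 4.09-fold lower. Without control replicate 1, 4 carriers rose and 1 fell, and without 4HBP replicate 2, 9 rose and 1 fell. The plasma membrane amino acid transporters called were 3 without control replicate 1 and 4 without control replicate 2.

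Lipid enzymes fell together. Of 22 tested genes of fatty acid synthesis and desaturation, 10 fell (45.5%, against 3.69% of all genes) and none rose, and the median log2 fold change was -0.35, against 0.00 over all genes tested. Scd1, which introduces the first double bond into stearate, was at 478, 416 and 278 CPM in the 4HBP libraries against 714, 889.7 and 753 CPM in the controls (log2 fold change -1.01 ± 0.18 SE, adjusted p = 0.0148). Scd2, its paralog and the main form in brain, was at 4537, 4104 and 3445 CPM in the 4HBP libraries against 5774, 6759 and 5742 CPM in the controls. Scd1 was lowest in 4HBP replicate 3 and below every control in all 3 treated libraries, and the same order held for Scd2. Fads1 and Fads2, the desaturases of polyunsaturated fatty acids, had log2 fold changes of -0.59 (adjusted p = 0.0145) and -0.68 (adjusted p = 0.0168).

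The genes that supply and extend the acyl chain changed the same way. Acss2, which makes acetyl-CoA from acetate, was at 42.1, 43.3 and 34.6 CPM in the 4HBP libraries against 74.6, 86.0 and 63.9 CPM in the controls (log2 fold change -0.90 ± 0.12 SE, adjusted p = 0.00656). Fasn, the fatty acid synthase, was at 438, 401 and 255 CPM in the 4HBP libraries against 585, 675 and 588 CPM in the controls (log2 fold change -0.76 ± 0.17 SE, adjusted p = 0.0344), and its lowest library was again 4HBP replicate 3. Acaca, the acetyl-CoA carboxylase (-0.42, adjusted p = 0.0270), Acsl3, an acyl-CoA synthetase (-0.42, adjusted p = 0.0375), Thrsp, a regulator of lipogenesis (-0.88, adjusted p = 0.0104), and Srebf1, which encodes the SREBP1 transcription factor (-0.34, adjusted p = 0.0288), made up the 10. The count of members called was 2 without 4HBP replicate 2 and 1 without control replicate 1 or control replicate 2. In the cholesterol pathway 23 of 24 tested genes had a log2 fold change below 0 (median -0.57), but only Mvk fell (-0.92, adjusted p = 0.0384). Without 4HBP replicate 3 the median was -0.33 and 10 members were called lower. Other genes of acetyl-CoA and acyl-CoA handling that fell were Acss1, the mitochondrial acetyl-CoA synthetase (-0.82, adjusted p = 0.00398), the citrate carrier Slc25a1 (-0.42, adjusted p = 0.0460), the peroxisomal transporter Abcd2 (-1.001, adjusted p = 0.00715) and Mgll, the lipase of monoacylglycerols (-0.98, adjusted p = 0.00378).

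A larger share of astrocyte markers than of NSC markers was called lower. Of 11 astrocyte markers 6 fell (54.5%, against 3.69% of all genes) and none rose. The median log2 fold change was -0.53, and all 11 were below 0. Gfap, the intermediate filament of astrocytes and of many cultured NSCs, was at 1348, 1439.8 and 1583 CPM in the 4HBP libraries against 2288, 2588 and 2128 CPM in the controls (log2 fold change -0.68 ± 0.10 SE, adjusted p = 0.00987). Gja1, the gap junction protein connexin 43, was at 255, 213 and 283 CPM in the 4HBP libraries against 428, 538 and 386 CPM in the controls (log2 fold change -0.85 ± 0.14 SE, adjusted p = 0.0122), and Aqp4, the water channel, at 528, 426 and 542 CPM in the 4HBP libraries against 708, 893 and 757 CPM in the controls (log2 fold change -0.66 ± 0.12 SE, adjusted p = 0.0169). All treated libraries lay below all controls in these genes, as in every gene called lower. Sparcl1 (-0.56, adjusted p = 0.0146), Clu (-0.53, adjusted p = 0.0150) and the glycolytic enzyme Aldoc (-0.70, adjusted p = 0.0239) also fell, and Apoe was at 2729, 2660.0 and 3286 CPM with 4HBP and 3412, 3826 and 3222 CPM without it (adjusted p = 0.174). No astrocyte marker was called without control replicate 1 or without control replicate 2, 3 were called without 4HBP replicate 2 and 10 without 4HBP replicate 3. The summed level of the 11 markers was 7859, 7899 and 10060 TPM with 4HBP and 10800, 11780 and 9921 TPM in the controls, so that 4HBP replicate 3 lay within the control range. In bulk RNA, fewer cells of a type and less RNA per cell cannot be told apart.

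Of 22 markers of neural stem cells and radial glia, all above 0 in every library, 2 fell (9.09%, against 3.69% of all genes) and none rose. Ptprz1, a receptor phosphatase and chondroitin sulfate proteoglycan, was at 3071, 2669 and 2636 CPM in the 4HBP libraries against 4053, 4295 and 3950.2 CPM in the controls (log2 fold change -0.55 ± 0.10 SE, adjusted p = 0.0137), with no overlap of the groups. Sox2 was at 308, 313 and 314 CPM with 4HBP and 305, 338 and 327 CPM without it (-0.05, adjusted p = 0.696), and Sox9, Notch1 and Vim had log2 fold changes of 0.03, -0.03 and 0.02. Nes was at 740.1, 782 and 473 CPM with 4HBP and 472, 449 and 688 CPM without it (0.31, adjusted p = 0.398), so replicate 3 of each group lay near the level of the other group. Summed over the list, NSC markers stood at 6224 to 6604 TPM with 4HBP and 7003 to 7233 TPM in the controls. The groups of these sums did not overlap, unlike those of the astrocyte sums.

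No neuronal marker (14 tested) or oligodendrocyte lineage marker (12 tested) passed the test. The oligodendrocyte markers had a median log2 fold change of -0.31. Markers of microglia summed to 1.48 to 2.85 TPM, of endothelial and mural cells to 3.82 to 5.13 TPM and of fibroblasts and meninges to 0.87 to 1.73 TPM, with 5 to 8 of 11, 2 to 3 of 9 and 1 to 3 of 8 markers at 0. Ependymal markers summed to 18.4, 21.7 and 33.5 TPM with 4HBP and to 24.6, 25.5 and 23.6 TPM in the controls. Many of the genes described here that glia express fell, as astrocyte markers did, but the order of the libraries was not always the same. Summed astrocyte markers in 4HBP replicate 3 lay within the control range, whereas Scd1 and Fasn were lowest in that library. The part of astrocyte markers in those results was not tested.

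Genes of cell contact and matrix fell more often than they rose. Among 24 proteoglycans of the brain matrix and their partners 6 fell (25%, against 3.69% of all genes) and 1 rose (4.17%, near the 3.74% of all genes), with a median of -0.24. Vcan, the large hyaluronan-binding proteoglycan versican, was at 159.9, 159 and 157 CPM in the 4HBP libraries against 274, 279 and 233 CPM in the controls (log2 fold change -0.72 ± 0.08 SE, adjusted p = 0.00406). Agrn, a heparan sulfate proteoglycan, was at 294, 274 and 244 CPM in the 4HBP libraries against 376, 408 and 369.7 CPM in the controls (log2 fold change -0.51 ± 0.09 SE, adjusted p = 0.0137), and the syndecan Sdc3 at 320.0, 307 and 238 CPM in the 4HBP libraries against 433, 450.3 and 386 CPM in the controls (log2 fold change -0.55 ± 0.12 SE, adjusted p = 0.0269). The treated libraries of Vcan lay within 3 CPM of each other and well below the controls. Bgn (-1.39, adjusted p = 0.0201), Hspg2 (-0.45, adjusted p = 0.0317) and Ptprz1 were the other members that fell, whereas the glypican Gpc4 rose (1.09, adjusted p = 0.0309). Without 4HBP replicate 2, control 1 or control 2, 1 member was called lower in each fit.

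Of 39 metalloproteases and their inhibitors 3 fell (7.69%, against 3.69% of all genes) and none rose, with a median of -0.07 and 15 of the 39 above 0. Timp3, a matrix-bound inhibitor of metalloproteases, was at 231, 182 and 195 CPM in the 4HBP libraries against 339, 445 and 359.8 CPM in the controls (log2 fold change -0.91 ± 0.12 SE, adjusted p = 0.00656), and Mmp14 (-0.45, adjusted p = 0.0223) and Adamts9 (-0.58, adjusted p = 0.0325), which are proteases, also fell. Of 24 collagens 18 had a log2 fold change below 0 and 2 fell (8.33%), namely Col5a2 (-0.46, adjusted p = 0.0318) and Col4a5 (-0.34, adjusted p = 0.0470). Laminin genes split, with Lamb2 lower (-0.54, adjusted p = 0.0170) and the weakly expressed Lama1 higher (1.62, adjusted p = 0.0321), and of 16 integrins Itgb5 fell (-0.38, adjusted p = 0.0187). Tgfbi, a matrix protein named after TGF-beta, was at 1.92, 2.13 and 2.12 CPM in the 4HBP libraries against 5.25, 4.85 and 7.69 CPM in the controls (log2 fold change -1.52 ± 0.22 SE, adjusted p = 0.00858). Except for Timp3 and Tgfbi, none of the calls in this list held in each fit without 1 library.

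Junction genes changed in both directions, with more falls. Of 12 claudins and connexins tested 4 fell (33.3%, against 3.69% of all genes) and 1 rose (8.33%, against 3.74%), with a median of -0.65. Cldn12, a claudin of tight junctions, was the member that rose, at 74.0, 87.7 and 87.7 CPM in the 4HBP libraries against 46.7, 43.7 and 56.4 CPM in the controls (log2 fold change 0.77 ± 0.11 SE, adjusted p = 0.00786). Its groups did not overlap, as in every called gene. Gja1 fell as described, Cldn10 was at 1.34, 1.52 and 2.62 CPM in the 4HBP libraries against 4.10, 5.33 and 3.60 CPM in the controls (log2 fold change -1.24 ± 0.29 SE, adjusted p = 0.0344), and the other astrocyte connexin Gjb6 (0.653 TPM in controls and 0.157 TPM with 4HBP) and Cldn2 (0.347 and 0.0767 TPM) fell from levels that were already close to the detection limit. Of 10 classical cadherins 4 fell (40%) and none rose. The falls were 0.48 for Cdh20, 0.49 for Cdh19, 0.50 for Cdh13 and 0.32 for Cdh11 on the log2 scale. None of these 4 cadherins was called without control replicate 1, control replicate 2 or 4HBP replicate 2, and none of the 4 junction genes that fell was called without either control. Protocadherins gave 3 higher (4.69%, near the share of all genes) and 5 lower (7.81%) of 64. Those of the clustered loci share exons, so that their reads can be divided between neighbours and single values are uncertain.

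Of 11 GABA and glycine receptor genes tested 3 fell (27.3%, against 3.69% of all genes) and none rose, but 6 of the 11 were above 0 and the median log2 fold change was 0.10. Both subunits of the metabotropic GABA receptor fell, Gabbr1 at 211, 209 and 193 CPM in the 4HBP libraries against 269, 291 and 264 CPM in the controls (log2 fold change -0.43 ± 0.07 SE, adjusted p = 0.0137) and Gabbr2 at 24.0, 29.1 and 29.5 CPM in the 4HBP libraries against 45.8, 63.8 and 37.6 CPM in the controls (log2 fold change -0.83 ± 0.18 SE, adjusted p = 0.0269). The subunit gene Gabrg1 of the GABA-gated chloride channel fell too (-0.61, adjusted p = 0.0288), and so did Slc6a11, a GABA transporter of glia (-0.67, adjusted p = 0.0425). Groups did not overlap in these 4 genes, as in every called gene, and none of the 4 was called without control replicate 1, control replicate 2 or 4HBP replicate 2.

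Potassium channel genes were among those that fell. Kcna6, a voltage-gated potassium channel, was at 87.1, 77.3 and 77.6 CPM in the 4HBP libraries against 124, 134 and 126 CPM in the controls (log2 fold change -0.67 ± 0.07 SE, adjusted p = 0.00398). Kcnn3, a calcium-activated channel (-0.64, adjusted p = 0.0102), and Kcnd2 (-0.50, adjusted p = 0.0338) were lower. Against this, Kcnk2, a leak channel, was at 85.0, 90.8 and 145 CPM in the 4HBP libraries against 62.9, 73.2 and 59.0 CPM in the controls (log2 fold change 0.72 ± 0.19 SE, adjusted p = 0.0495), and Kcnt2 rose from 0.110 to 1.31 TPM (3.45, adjusted p = 0.00879). In all, 2 of 53 potassium channels rose (3.77%, against 3.74% of all genes) and 5 fell (9.43%, against 3.69%). Of 26 calcium and sodium channel genes 1, Cacng5, fell (3.85%), so these shares of channels that rose and of calcium and sodium channels that fell were near those of all genes. Kcna6 alone remained called without control replicate 1 or control replicate 2.

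Other surface receptors gave single strong changes. Adcyap1r1, the receptor of the neuropeptide PACAP, was at 434, 363 and 358 CPM in the 4HBP libraries against 725, 813 and 681 CPM in the controls (log2 fold change -0.94 ± 0.10 SE, adjusted p = 0.00398), and the fibroblast growth factor receptor Fgfr2 at 51.7, 39.4 and 45.0 CPM in the 4HBP libraries against 73.7, 87.2 and 82.3 CPM in the controls (log2 fold change -0.84 ± 0.11 SE, adjusted p = 0.00599). Notch3 was at 98.1, 101 and 96.3 CPM in the 4HBP libraries against 148, 192 and 135 CPM in the controls (log2 fold change -0.69 ± 0.12 SE, adjusted p = 0.0137), while Hey1, a target of Notch signalling, was at 89.3, 104 and 114 CPM in the 4HBP libraries against 62.8, 71.7 and 62.0 CPM in the controls (log2 fold change 0.64 ± 0.10 SE, adjusted p = 0.0104). Thus within 13 tested genes of the Notch pathway 1 rose (7.69%, against 3.74% of all genes) and 2 fell (15.4%, against 3.69%), namely Notch3 and Hes6 (-0.54, adjusted p = 0.0452). The adrenergic receptor Adra1a was at 6.82, 5.64 and 8.24 CPM in the 4HBP libraries against 17.1, 16.05 and 15.1 CPM in the controls (log2 fold change -1.22 ± 0.15 SE, adjusted p = 0.00479). Among ionotropic and metabotropic glutamate receptors, Grm5 (0.49, adjusted p = 0.0330) and Gria3 (0.41, adjusted p = 0.0452) rose and Grin3a (-0.67, adjusted p = 0.0414) and Grik5 (-0.32, adjusted p = 0.0476) fell out of 21, so 9.52% were called in each direction. No Notch or glutamate receptor gene was called without control replicate 1. Adcyap1r1, Fgfr2 and Adra1a were chosen after their values were seen, because they passed in all 6 fits without 1 library.

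Several immediate early genes and inhibitors of ERK signalling rose. Of 18 tested immediate early genes of the AP-1, Egr and Nr4a groups 7 rose and 1 fell (38.9% against 3.74% and 5.56% against 3.69% of all genes), with a median log2 fold change of 0.68. Egr1, a zinc finger factor induced within minutes of growth factor signals, was at 205, 229 and 173 CPM in the 4HBP libraries against 91.6, 62.6 and 77.2 CPM in the controls (log2 fold change 1.39 ± 0.14 SE, adjusted p = 0.00332). Junb was at 26.5, 36.8 and 41.6 CPM in the 4HBP libraries against 14.0, 13.4 and 21.4 CPM in the controls (log2 fold change 1.11 ± 0.21 SE, adjusted p = 0.0183), and Nr4a1, an orphan nuclear receptor, at 15.6, 13.8 and 17.3 CPM in the 4HBP libraries against 7.64, 9.45 and 9.64 CPM in the controls (log2 fold change 0.80 ± 0.14 SE, adjusted p = 0.0137). In these genes, as in every gene called higher, each treated library was above each control. Egr3 (1.90, adjusted p = 0.0134), Fosb (1.31, adjusted p = 0.0237), Egr2 and Ier3 (1.14, adjusted p = 0.0377) rose from lower levels. Jund fell (-0.43, adjusted p = 0.0235), and Fos was at 90.6, 88.7 and 117 CPM with 4HBP and 75.9, 77.0 and 73.2 CPM without it (0.39, adjusted p = 0.0571). Without control replicate 1 or control replicate 2, Egr1 alone remained among the 7.

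Among 26 Dusp, Sprouty and Spred genes 5 rose (19.2%, against 3.74% of all genes) and 1 fell (3.85%, near the 3.69% of all genes), with a median of 0.12. Dusp6, the phosphatase that inactivates ERK in the cytosol, was at 29.8, 33.7 and 29.998 CPM in the 4HBP libraries against 14.1, 10.5 and 14.9 CPM in the controls (log2 fold change 1.24 ± 0.14 SE, adjusted p = 0.00398). Spry2, a Sprouty inhibitor of receptor tyrosine kinase signals, was at 102, 96.0 and 82.3 CPM in the 4HBP libraries against 67.1, 61.2 and 67.2 CPM in the controls (log2 fold change 0.52 ± 0.09 SE, adjusted p = 0.0145), and Spry1 at 18.4, 17.8 and 13.2 CPM in the 4HBP libraries against 9.07, 6.79 and 11.8 CPM in the controls (log2 fold change 0.84 ± 0.20 SE, adjusted p = 0.0412). The treated libraries lay above the controls in all 3, although 4HBP replicate 3 came close to control replicate 3 in Spry1. Spry4 (0.73, adjusted p = 0.0436) and Spred1 (0.35, adjusted p = 0.0375) rose, and Dusp8 fell (-0.58, adjusted p = 0.0184). Dusp6 was the 1 member that remained called without 4HBP replicate 2, control 1 or control 2.

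**Figure D3:**
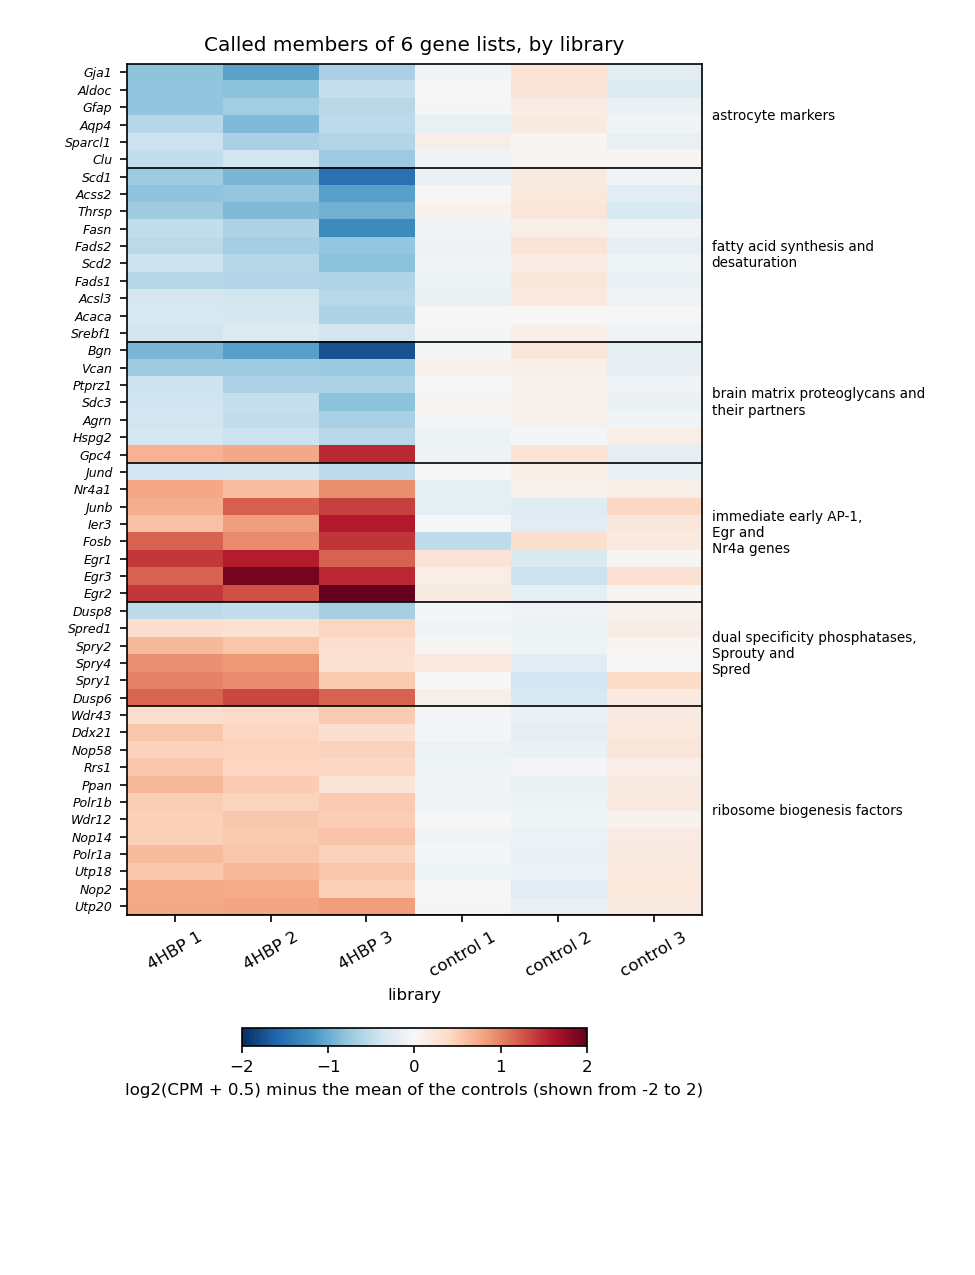
Heat map of log2(CPM + 0.5) minus the mean of the 3 controls for the called members of 6 gene lists, with genes in rows, the 6 libraries in columns, red above and blue below the control mean, and colours shown from -2 to 2. Of the 10 fatty acid genes 9 are lowest in 4HBP replicate 3, the 6 astrocyte genes are below the control mean in all 3 treated libraries, and the 12 ribosome biogenesis genes are above it in all 3.

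About 1 in 3 factors that build ribosomes rose, while no ribosomal protein gene passed the test. Of 38 ribosome biogenesis factors 12 rose (31.6%, against 3.74% of all genes) and none fell, with a median log2 fold change of 0.38. Without 4HBP replicate 3, 22 rose. Utp20, a component of the complex that processes the small subunit, was at 60.6, 61.4 and 62.8 CPM in the 4HBP libraries against 34.3, 31.7 and 40.1 CPM in the controls (log2 fold change 0.80 ± 0.09 SE, adjusted p = 0.00419). Polr1a, the largest subunit of RNA polymerase I, was at 93.2, 88.5 and 83.4 CPM in the 4HBP libraries against 58.2, 54.9 and 68.1 CPM in the controls (log2 fold change 0.55 ± 0.09 SE, adjusted p = 0.0132), and the rRNA methyltransferase Nop2 at 56.8, 56.3 and 46.5 CPM in the 4HBP libraries against 33.6, 28.7 and 38.5 CPM in the controls (log2 fold change 0.66 ± 0.12 SE, adjusted p = 0.0169). Control replicate 3 was the highest control in each of these genes. The count of members called was 3 without 4HBP replicate 2 and 1 without control replicate 1 or control replicate 2. None of 80 cytosolic and 78 mitochondrial ribosomal protein genes was called, with medians of -0.03 (0.00 with library totals) and 0.00 and ranges from -0.23 to 0.48 and from -0.28 to 0.59.

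Of 53 translation initiation factors 9 rose (17.0%, against 3.74% of all genes) and none fell (median 0.11). Eif4ebp1, which binds and blocks the cap-binding factor eIF4E, was at 67.4, 88.2 and 91.6 CPM in the 4HBP libraries against 30.9, 20.6 and 35.8 CPM in the controls (log2 fold change 1.502 ± 0.19 SE, adjusted p = 0.00525). Eif3c, a core subunit of eIF3, was at 649, 708 and 684 CPM in the 4HBP libraries against 456, 421 and 495 CPM in the controls (log2 fold change 0.57 ± 0.09 SE, adjusted p = 0.00893), and Eif2b3, a subunit of the exchange factor of eIF2, at 18.0, 18.8 and 19.4 CPM in the 4HBP libraries against 11.1, 9.65 and 12.9 CPM in the controls (log2 fold change 0.74 ± 0.13 SE, adjusted p = 0.0137). The log2 fold change of Eif4ebp1 exceeded those of the other 8, which were 0.29 to 0.74. Of 20 cytosolic tRNA synthetases 12 rose (60%) and none fell (median 0.44). They were led by Wars, at 174, 232 and 239.7 CPM in the 4HBP libraries against 86.5, 82.8 and 95.2 CPM in the controls (log2 fold change 1.29 ± 0.12 SE, adjusted p = 0.00228). Eif4ebp1 alone remained called without control replicate 1 and without control replicate 2, and 3 and 4 of the synthetases did.

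Oxidising enzymes of small molecules changed in both directions. Of 19 cytochrome P450 genes tested 5 fell (26.3%, against 3.69% of all genes) and 1 rose (5.26%, against 3.74%). Cyp4f14, an omega-hydroxylase of fatty acids, was at 3.94, 3.65 and 4.78 CPM in the 4HBP libraries against 8.78, 13.8 and 8.91 CPM in the controls (log2 fold change -1.34 ± 0.21 SE, adjusted p = 0.0102), and Cyp2j6, of the epoxygenase family, at 71.5, 64.0 and 65.6 CPM in the 4HBP libraries against 90.8, 103 and 89.1 CPM in the controls (log2 fold change -0.49 ± 0.08 SE, adjusted p = 0.0129). Cyp2j9 (-0.64, adjusted p = 0.0226), Cyp2j13 (-3.16, adjusted p = 0.0330) and Cyp4f15 (-1.27, adjusted p = 0.0387) fell, and Cyp4v3 rose (1.05, adjusted p = 0.0302). The Cyp2j and Cyp4f genes are near-copies in clusters, so that shared reads make single values uncertain. Cyp1b1, a classical target of the aryl hydrocarbon receptor, was at 1.25, 1.23 and 1.61 CPM with 4HBP and 0.716, 0.970 and 1.31 CPM without it (0.45, adjusted p = 0.430). Of 14 aldehyde dehydrogenases 3 rose (21.4%) and 5 fell (35.7%). Aldh1l2, a mitochondrial folate enzyme, was at 341, 375 and 465 CPM in the 4HBP libraries against 186, 172 and 169.6 CPM in the controls (log2 fold change 1.16 ± 0.11 SE, adjusted p = 0.00237). Aldh3a2, which oxidises fatty aldehydes, rose (0.50, adjusted p = 0.0109), and Aldh7a1 (-0.31, adjusted p = 0.0275), Aldh4a1 (-0.41, adjusted p = 0.0262) and Aldh9a1 (-0.33, adjusted p = 0.0346) fell. Of 13 metallothioneins and NRF2 targets 5 rose (38.5%) and none fell (median 0.31). Of those that rose, Hmox1 was at 129.6, 145 and 167 CPM in the 4HBP libraries against 71.3, 65.7 and 97.6 CPM in the controls (log2 fold change 0.91 ± 0.15 SE, adjusted p = 0.0119), whereas Nqo1 was at 2.11, 1.42 and 2.53 CPM with 4HBP and 2.53, 3.01 and 2.19 CPM without it (-0.35, adjusted p = 0.469). Cyp4f14 and Aldh1l2 passed in each fit without 1 library and were the only genes of the P450 and aldehyde dehydrogenase lists called without control replicate 1, when no metallothionein or NRF2 target was called.

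Glycolysis genes were called in both directions, 2 higher and 4 lower of 25 (24.0%, against 7.43% of all genes, median -0.11). Pfkfb3 (0.72, adjusted p = 0.0272) and Hk2 (0.81, adjusted p = 0.0318) rose, and Pfkm (-0.47, adjusted p = 0.0143), Aldoc, Ldhb (-0.37, adjusted p = 0.0259) and Pdk1 (-0.50, adjusted p = 0.0276) fell. Of 82 nuclear genes of oxidative phosphorylation 73 had a log2 fold change below 0 (median -0.12), yet none fell and 2 rose (2.44%, against 3.74% of all genes), Uqcrq (0.39, adjusted p = 0.0297) and Cox6a2, the muscle form of a cytochrome oxidase subunit. Cox6a2 was at 1.06, 2.66 and 2.90 CPM in the 4HBP libraries against 0.191, 0.00 and 0.292 CPM in the controls (log2 fold change 3.73 ± 0.67 SE, adjusted p = 0.0154), a low level in every library. None of 12 mitochondrially encoded genes was called, and no glycolysis gene was called without control replicate 1.

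Secreted factors showed opposite changes within a family. Igfbp3 was at 383, 489.8 and 442 CPM in the 4HBP libraries against 149, 85.1 and 258 CPM in the controls (log2 fold change 1.42 ± 0.32 SE, adjusted p = 0.0321), whereas Igfbp5 fell as described, and the other 5 tested members of the IGF family did not pass. The controls of Igfbp3 spread more than the treated libraries, and control replicate 3 came closest to them. Gdf15, a stress hormone of the TGF-beta family, was at 4.22, 7.87 and 8.83 CPM in the 4HBP libraries against 1.24, 0.485 and 0.827 CPM in the controls (log2 fold change 3.03 ± 0.37 SE, adjusted p = 0.00479), the 1 called gene of 12 in that family. Of 20 peptide hormones and neuropeptides 3 rose (15%, against 3.74% of all genes) and 1 fell (5%, against 3.69%). Stc2, a secreted glycoprotein hormone, was at 18.4, 24.3 and 25.4 CPM in the 4HBP libraries against 9.26, 7.76 and 14.2 CPM in the controls (log2 fold change 1.13 ± 0.22 SE, adjusted p = 0.0196), and Fndc5, the precursor of irisin, at 5.52, 3.94 and 4.28 CPM in the 4HBP libraries against 10.8, 11.1 and 7.40 CPM in the controls (log2 fold change -1.09 ± 0.20 SE, adjusted p = 0.0173). Adm2 was at 1.54, 3.22 and 3.40 CPM in the 4HBP libraries against 0.00, 0.00 and 0.0487 CPM in the controls, and Ostn, which encodes musclin, at 0.624, 0.759 and 1.70 CPM in the 4HBP libraries against 0.00, 0.00 and 0.00 CPM in the controls. Both were at or under 3 counts in each control and at least 18.8-fold and 7.10-fold higher with 4HBP. The cytokine gene Il18 was at 17.2, 15.6 and 14.5 CPM in the 4HBP libraries against 34.8, 37.5 and 27.7 CPM in the controls (log2 fold change -1.08 ± 0.13 SE, adjusted p = 0.00444).

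Guidance and growth factor ligands completed the secreted genes. Of 58 axon guidance genes 2 rose (3.45%, against 3.74% of all genes) and 5 fell (8.62%, against 3.69%). Ntn4, a netrin, was at 39.9, 45.4 and 39.0 CPM in the 4HBP libraries against 23.8, 21.3 and 28.1 CPM in the controls (log2 fold change 0.76 ± 0.11 SE, adjusted p = 0.00921), and the semaphorin receptor Plxnb1 at 186, 173 and 181 CPM in the 4HBP libraries against 249, 312 and 243 CPM in the controls (log2 fold change -0.57 ± 0.10 SE, adjusted p = 0.0145). Sema4a fell (-1.61, adjusted p = 0.0128), and Plxna1 rose (0.48, adjusted p = 0.0175). Fgf11 (-0.45, adjusted p = 0.0184) and Fgf14 (-0.58, adjusted p = 0.0440), which act inside the cell on sodium channels, fell out of 6 FGF genes (33.3%). Of 25 Wnt pathway genes Sfrp4 (-1.12, adjusted p = 0.0377) and Fzd2 (-0.48, adjusted p = 0.0446) fell (8%). Igfbp5, Gdf15, Adm2 and Il18 passed in each fit without 1 library, and Igfbp3, Stc2, Fndc5, Ostn, Ntn4, Plxnb1 and the FGF and Wnt genes did not. Without control replicate 1 no guidance gene was called.

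Other signalling families gave isolated changes, some of them large. P2rx3, an ATP-gated ion channel best known from sensory neurons, was at 2.59, 3.13 and 7.96 CPM in the 4HBP libraries against 0.286, 0.145 and 0.292 CPM in the controls (log2 fold change 4.21 ± 0.56 SE, adjusted p = 0.00656). Pde1a, a phosphodiesterase that is activated by calmodulin and breaks down cyclic nucleotides, was at 13.6, 18.9 and 15.6 CPM in the 4HBP libraries against 4.01, 1.99 and 5.30 CPM in the controls (log2 fold change 2.09 ± 0.28 SE, adjusted p = 0.00656). In both, as in every called gene, the groups did not overlap. Pde1b, a paralog of Pde1a, fell (-0.64, adjusted p = 0.0384), as did Pde9a (-0.67, adjusted p = 0.0252). Of 20 phosphodiesterases 2 rose (10%, against 3.74% of all genes) and 2 fell (10%, against 3.69%). Of 7 purinergic receptors P2rx7 also rose (0.43, adjusted p = 0.0261) and P2rx6 fell (-1.05, adjusted p = 0.0185), so that 28.6% rose and 14.3% fell. Among 47 orphan and adhesion G protein-coupled receptors 2 rose (4.26%, near the share of all genes), Adgre5 (0.99, adjusted p = 0.0184) and Adgrg6 (0.40, adjusted p = 0.0456). In the same list 5 fell (10.6%), among them Gpr153 and Adgra1 (-0.71, adjusted p = 0.0184). Of the genes named in this group, P2rx3 and Gpr153 alone remained called without control replicate 1.

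Of 63 heat shock and J-domain genes 4 rose and 1 fell (7.94%, close to the 7.43% of all genes). Hspa9, the HSP70 chaperone of mitochondria, was at 855, 947 and 1097 CPM in the 4HBP libraries against 512, 443 and 622 CPM in the controls (log2 fold change 0.88 ± 0.14 SE, adjusted p = 0.0100), and its partner Dnaja3 rose by less (0.46, adjusted p = 0.0183). The gene names that chose this list also took in Hspbap1, which rose, and the proteoglycan gene Hspg2, which fell. The cytoskeletal genes called included Myo6, an unconventional myosin, at 785, 696 and 652 CPM in the 4HBP libraries against 918, 929.8 and 1028 CPM in the controls (log2 fold change -0.43 ± 0.09 SE, adjusted p = 0.0297), and Arhgef2, an exchange factor of RhoA bound to microtubules, at 179, 189 and 242 CPM in the 4HBP libraries against 108, 105 and 151 CPM in the controls (log2 fold change 0.74 ± 0.16 SE, adjusted p = 0.0269). Myo6 fell and Arhgef2 rose without overlap of the groups, which holds for every called gene. Of 38 TRIM genes 3 rose (7.89%, against 3.74% of all genes) and none fell, led by Trim47 (0.98, adjusted p = 0.0204). Of 10 chemokine genes 3 rose (30%). Cxcl10 was at 2.69, 2.66 and 11.5 CPM in the 4HBP libraries against 0.382, 0.436 and 0.584 CPM in the controls (log2 fold change 3.58 ± 0.67 SE, adjusted p = 0.0177), while Cxcl1 and Ccl2 were at or under 3 counts in every control and at least 24.4-fold and 9.98-fold higher with 4HBP. Apart from 1 TRIM gene, Trim35, none of the called genes of these families was called without control replicate 1 or control replicate 2.

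**Figure D4:**
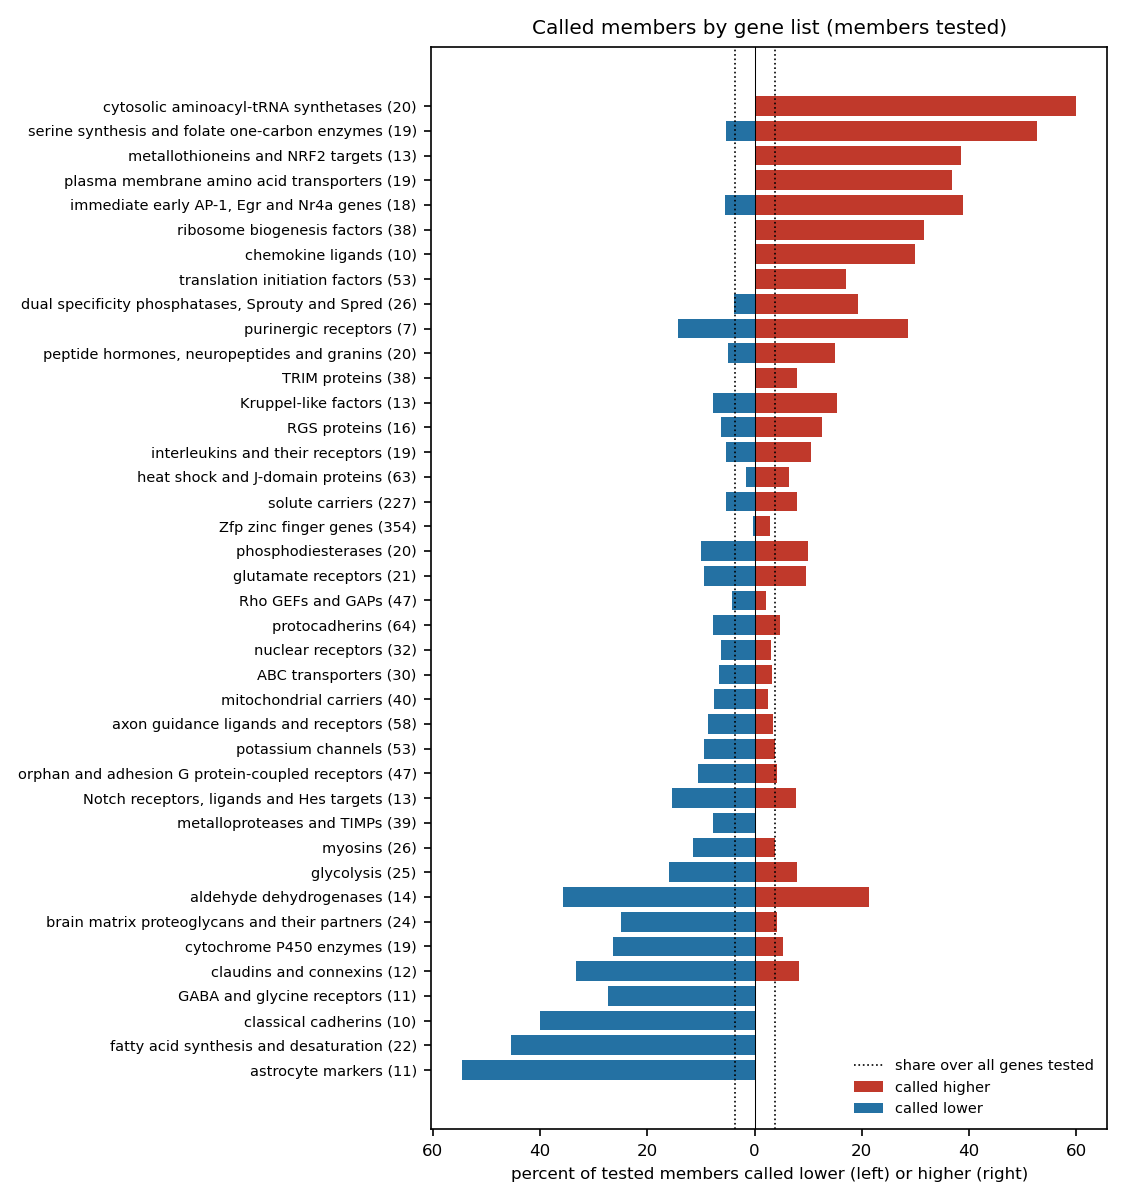
Percent of tested members called lower (blue, left) or higher (red, right) with 4HBP for gene lists with at least 7 tested and 3 called members, ordered by the difference of these shares, with members tested in brackets and dotted lines at the shares over all genes (3.69% lower and 3.74% higher). Translation and amino acid lists stand at the top, and astrocyte, fatty acid and cadherin lists at the bottom.

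Some families held few or no calls. Of 354 zinc finger genes named Zfp, 10 rose and 1 fell (3.11%, against 7.43% of all genes). No gene was called among 52 splicing factors (median 0.01, 5 called higher without 4HBP replicate 3), 38 proteasome subunits, 20 homeobox genes, 16 clustered histone genes, 14 tubulins, 14 synaptotagmins, 13 TRP channels or 22 interferon-stimulated genes, whose median was 0.29. At the 7.43% of all genes, lists of 22 genes or fewer would hold few calls in any case. Of 79 chromatin enzymes and remodellers, Hdac9 fell (-0.65, adjusted p = 0.0228), and of 40 kinesins, Kif21a (-0.52, adjusted p = 0.00996). The share called was above that of all genes in the small Sox family and close to it in the nuclear receptors. Within the Sox family Sox4, at 559, 546 and 588 CPM in the 4HBP libraries against 734, 840.3 and 696 CPM in the controls (log2 fold change -0.42 ± 0.09 SE, adjusted p = 0.0274), and Sox5 (-0.36, adjusted p = 0.0455) fell among 13 (15.4% lower). Of 32 nuclear receptors Nr4a1 rose and Rorb (-0.54, adjusted p = 0.0375) and Thrb (-0.66, adjusted p = 0.0412) fell (9.38% called). No gene in this group was called without control replicate 1, and a p that misses the threshold does not show equal levels.

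To see whether the changes belonged to proliferation medium, the difference between the 4HBP effects in the 2 media was tested over all 11 libraries. This interaction passed an adjusted p under 0.05 for 715 of 15920 genes (4.49%), including 275 of the 541 genes called higher and 309 of the 533 called lower in proliferation medium. The media do not share control libraries. In the 5 differentiation libraries alone 395 of 15484 genes (2.55%) were called, and 5 of the 541 and 10 of the 533 were called there in the same direction, and 21 and 31 in the opposite direction. Replicates were closer to each other in differentiation medium (biological coefficient of variation 0.0368 against 0.117). The count of genes with a difference was 124 without either of the differentiation controls.

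Slc7a3 was at 1.00, 0.846 and 0.806 CPM with 4HBP and 1.28 and 1.25 CPM in the controls in differentiation medium, which gives a difference between the media of 4.07, adjusted p = 0.000745. Padi2 was at 109, 107 and 97.1 CPM with 4HBP and 91.6 and 79.9 CPM in the controls there (difference -1.90, adjusted p = 0.000119). In both genes the treated libraries there lay on the other side of the controls than in proliferation medium. Scd2 was at 6542, 6616 and 6889 CPM with 4HBP and 6162 and 6683 CPM in the controls (difference -0.65, adjusted p = 0.0245), and Gfap at 1647, 1585 and 1408 CPM with 4HBP and 1684 and 1406 CPM in the controls (difference -0.68, adjusted p = 0.0192). For Shisa3 the difference was 2.14, adjusted p = 0.170, for Dhrs1 0.42, adjusted p = 0.130, and for the cadherin Cdh11 -0.30, adjusted p = 0.101, so for these genes the effects in the media were not shown to differ.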

How the data were processed

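RNA of NSCs in proliferation medium (6 libraries), and in differentiation medium (5 libraries) for the test of the difference, had been sequenced as 150 bp pairs on an Illumina HiSeq from TruSeq Stranded mRNA libraries. Per the labels, the authors trimmed the reads with cutadapt, checked them with FastQC 0.11.5 and quantified them with RSEM 1.3.0 on Bowtie2 2.2.9 against GRCm38 and GENCODE M17. They deposited estimated counts (RSEM expected counts) per gene, and with them TPM, which were used for levels, and FPKM, which were not used. Of the values, 15.2% were not whole, since RSEM divides reads between genes that share them.

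Expected counts were rounded, genes with low counts were removed (edgeR filterByExpr, 14449 of 53801 kept), and the 6 libraries were normalised by TMM and tested with edgeR 4.0.16 (quasi-likelihood test, R 4.3.3, Benjamini-Hochberg adjusted p under 0.05). The difference between media was an interaction term over 11 libraries. Symbols came from GENCODE M21 (53706 IDs matched). The script was tested on simulated data. In the limma alternative, genes were called at p under 0.05 without adjustment and an absolute log2 fold change over 0.58. Alternatives were DESeq2 1.42.0, limma 3.58.1 on log2(CPM + 1) with the study's thresholds, voom with quality weights, library totals, no filter, all 11 libraries, a block for the replicate number, and fits without 1 library each.

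Gene lists and named genes were chosen with earlier results of these data known. Named were the 10 genes called in each direction with the largest log2 fold change at a mean of at least 5 CPM and without overlap of groups, leaving out Gm and Rik names, the 5 in each direction with the highest TPM, up to 4 called members of a list in each direction by adjusted p, cell type markers, and up to 2 list members of highest TPM. Other genes in the text were chosen after their values were seen. The 3 counts of a floor cover a library, and a fold bound sets each library of the group at that floor after TMM. Some list members are not reported here.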

Additional observations from a re-analysis of the deposited data

Results flagged for a closer look

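The effect of 4HBP differed between the media (interaction adjusted p under 0.05 in edgeR over 11 libraries) for 26 of the 30 genes named by size or level, and for 165 of the 244 other called genes named in lists, against 4.49% of all genes tested for it. The genes were chosen because they changed in proliferation medium, so the shares add no independent support. Values are the log2 fold change in proliferation medium minus that in differentiation medium. Among the genes that rose they were 4.07 for Slc7a3, 3.90 for Fbln5, 3.46 for Tgm1, 3.17 for Cyb5r1, 3.16 for Apobr, 3.10 for Egr2, 2.89 for Nupr1, 2.50 for Slc4a10, 0.65 for Sars, 0.57 for Gas5, 0.47 for Hspa8 and 0.44 for Mtss1l. Among those that fell they were -1.91 for Acat3, -1.90 for Padi2, -1.78 for Sned1, -1.70 for Btbd17, -1.55 for Ssc5d, -1.50 for Htra3, -1.47 for Igfbp5, -1.42 for Agt, -1.08 for Gpr153, -0.68 for Gfap, -0.65 for Scd2, -0.51 for Dbi, -0.49 for Tmsb4x and -0.30 for Cpe. Cdsn, Serpinb1a, Shisa3 and Dhrs1 did not pass that test. With weights for each group, which allow the spread of replicates to differ between the media, 27 of the 30 passed.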

How the results depend on the processing

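None of the 274 called genes named changed sign under the alternatives run, but their groups did not overlap, so a change of sign was hardly possible. Some list medians near 0 changed sign, such as that of laminins, which was -0.06 in the main fit and 0.03 without control replicate 3. Of 1074 called genes (541 higher, 533 lower), the counts were 1623 with DESeq2 (820 lower), 2668 with all 11 libraries in the fit (1367 and 1301), 651 with limma on log2(CPM + 1) and the study's thresholds (345 and 306), and 2344 with voom quality weights (1249 and 1095). Library totals gave 668 higher and 471 lower, and no filter gave 1546 calls. Without 1 library they ran from 107 to 1429 in all, 46 to 716 higher and 61 to 713 lower. Same-numbered replicates did not deviate together (correlations -0.038, -0.110 and -0.134), so the numbers were not taken as pairs, and a replicate block gave 534 calls (279 and 255). For the difference between media, 715 genes became 1616 without the filter and 156 with the replicate block, and 124 to 1100 without 1 library. Of 274 called genes named, 272 remained called with DESeq2, 261 with library totals, 177 with limma, 188 with the block, 96 without control replicate 1 and 106 without control replicate 2. The causes were not tested. Genes under 1 TPM had a median SE of 0.39, and those called there had median log2 fold changes of 1.85 and -1.59. Changes well above 1 SE could therefore be missed at that level.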
